A study of Mus musculus with 32 samples.

Results

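The cytosolic ribosomal protein genes are the protein-coding genes whose symbol starts with Rpl or Rps and a number, together with the stalk genes Rplp0, Rplp1 and Rplp2, without the ribosomal protein kinases of the Rps6k family. They were taken by that name rule from the gene tables of 4 mouse organs, which gave 82 genes among the 10055 distinct genes of the tables. Of the 82, 50 carry a large-subunit name and 32 a small-subunit name. A group of 73 are the canonical genes, and the other 9 are paralogs, gene copies annotated as coding, or a gene of another function that shares the name: Rpl7l1, Rpl22l1, Rpl36al, Rps27l, Rps27rt, Rpl9-ps6, Rpl27-ps3, Rps12-ps3 and Rps19bp1. The GENCODE M21 annotation has 91 protein-coding genes that fit the name pattern.

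The study compared male mice lacking ketohexokinase, the enzyme that phosphorylates fructose (Khk KO), with wild-type males (WT), to ask how fructose and this enzyme act on iron balance. Polyadenylated RNA was sequenced from liver, duodenum, jejunum and ileum, with 4 libraries per genotype and organ, 32 in all. The labels give the organ, the genotype and a number, and no age, strain, diet or targeted allele. They do not say that the libraries of a group came from separate mice, nor whether the organs were taken from the same animals, so p-values measure only the spread between these libraries, which may be technical.

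The ribosome has a small subunit, which reads the message, and a large subunit, which joins amino acids and passes the chain through an exit tunnel. Each holds ribosomal RNA and many proteins that are mostly present in a single copy, so their genes are expressed together at high levels in nearly every cell. Many of their messages begin with a C followed by a run of pyrimidines, the terminal oligopyrimidine (TOP) tract, through which the growth-sensing mTORC1 pathway and the RNA-binding protein LARP1 control their translation and stability. Liver and intestinal epithelium make much protein, and both hold these messages in abundance.

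The start of the message is shown here because it is a feature the members share and the name rule did not use. RefSeq start sites (build GRCm38.p6) were found for 60 of the 82 genes. In the lines that follow, 10 bases before the annotated start and 20 bases from it are printed 5′ to 3′, and capitals mark the pyrimidine run: a C followed by an unbroken stretch of C and T, 7 or more bases in all, beginning within 25 bases of the start. Rps6 and Rplp2 stand for the small subunit and the stalk, Rpl35 has the longest run printed, Rps27 and Rps27rt are the near-identical pair described next, and Rps3 is a member without a run.
Rps6: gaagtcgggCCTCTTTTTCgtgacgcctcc
Rplp2: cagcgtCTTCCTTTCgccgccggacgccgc
Rpl35: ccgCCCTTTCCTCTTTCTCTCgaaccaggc
Rps24: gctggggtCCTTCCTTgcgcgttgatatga
Rps27: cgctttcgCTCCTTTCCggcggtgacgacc
Rps27rt: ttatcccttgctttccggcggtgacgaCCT
Rps3: aagggtcgccgcgctgcgcggcgtcattgc
These windows lie at chr4:86857348-86857377 (Rps6, minus strand), chr7:141447641-141447670 (Rplp2, plus), chr2:39005112-39005141 (Rpl35, minus), chr14:24490668-24490697 (Rps24, plus), chr3:90213629-90213658 (Rps27, minus), chr9:114982720-114982749 (Rps27rt, minus) and chr7:99483690-99483719 (Rps3, minus). The run of Rps27rt begins 17 bases after its annotated start and goes on past the window, whereas that of Rps27 begins 2 bases before it.

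Such a run was found in 36 of the 60 members (60.0%), in 21 of 69 mitochondrial ribosomal protein genes (30.4%) and in 4121 of all 17492 protein-coding genes of the same table (23.6%). The annotated start was itself a C in 21 of 60 members (35.0%), against 13.7% of all genes. In the 300 bases from 250 before to 50 after the start, on either strand, CCGGAAG, the core bound by ETS-family factors, was present in 22 members (36.7%) against 11.9% of all genes. AAGATGGC, the core bound by YY1, was present in 5 (8.33%) against 3.22%, and the GC box GGGCGG in 37 (61.7%) against 46.3%. The ETS and YY1 cores can overlap by 3 bases. These are matches of letters, not measured binding.

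Ribosomal protein genes have many copies in the genome, and reads can belong to more than one of them. One such pair, described here because Rps27rt stood farthest from the family median, is Rps27, a zinc-finger protein of the small subunit, and Rps27rt, a single-exon copy. Their coding sequences are shown with that of Rps27l, the diverged paralog, since capitals in its line mark each base that differs from Rps27.
Rps27 and Rps27rt: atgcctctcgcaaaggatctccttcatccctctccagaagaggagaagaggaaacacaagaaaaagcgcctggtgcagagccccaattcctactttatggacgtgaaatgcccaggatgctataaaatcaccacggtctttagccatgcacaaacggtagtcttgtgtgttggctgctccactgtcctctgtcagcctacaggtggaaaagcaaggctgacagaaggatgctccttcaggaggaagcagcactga
Rps27l: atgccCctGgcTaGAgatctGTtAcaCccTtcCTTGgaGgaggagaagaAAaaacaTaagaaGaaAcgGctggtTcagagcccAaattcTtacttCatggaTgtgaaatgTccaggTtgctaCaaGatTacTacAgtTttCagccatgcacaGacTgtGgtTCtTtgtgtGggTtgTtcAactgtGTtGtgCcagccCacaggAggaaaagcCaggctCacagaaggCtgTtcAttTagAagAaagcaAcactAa
All 3 coding sequences are 255 bases long. Those of Rps27 (chr3:90212522-90213651, minus strand, GRCm38) and Rps27rt (chr9:114982366-114982739, minus strand) did not differ at any base, and that of Rps27l (chr9:66946086-66949516, plus strand) differed at 61 bases (76.1% identity). Of the 50-base stretches of the Rps27 transcript, 98.6% occur unchanged in another gene's transcript, and of those of Rps27rt 91.1%. A read from either gene can rarely be placed by its sequence, and how the authors counted such reads is not given in the sources used here. Over the 82 members the median share of such stretches was 44.3%, and 34 members shared 50% or more. Rps12-ps3 and Rpl27-ps3 shared 100%, while Rps19bp1 shared none. Values of single members are thus uncertain, but the share does not measure by how much. It is taken over the main coding transcript, so a long annotated one, such as the 5179 bases of Rps15a with 6.28% shared, lowers it. Strandedness is unknown, and 2 members overlap a coding gene on the other strand over most of their exon bases, Rpl35 with Wdr38 (66.2%) and Rpl23a with Tlcd1 (59.7%).

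Each organ's table holds only the genes with an unadjusted p under 0.05 in the authors' comparison of the genotypes, so a member that is listed had to differ, and members missing from a table have no value here. The reads of the listed genes came to between 1722220 per library in duodenum and 14331517 in liver. Khk itself separated the genotypes in every organ. Its normalised count was 743 to 1000 in Khk KO liver against 5784 to 11769 in WT liver, 611 to 736 against 9414 to 24008 in duodenum, 541 to 837 against 5579 to 13852 in jejunum and 83.8 to 122 against 1174 to 2617 in ileum. The edgeR adjusted p was 0.000267, 0.000437, 0.00224 and 0.000102 in that order. Whether the reads left in Khk KO lie outside the deleted part is not given in the sources used here. The hepatocyte markers listed in liver, Apoa1, Apoa2, Cps1, Serpina1a and Ttr, summed to 333256 or more normalised counts in each library. Apoa1 alone had 120351 to 482625 in duodenum, however, and the epithelial markers Apoa4 and Fabp1 summed to 23076 to 44832 in liver. The listed markers thus do not by themselves tell liver from gut. Of 9 epithelial markers only Sis was listed in duodenum, at 28685 or more in each library, and 4 each were listed in jejunum and ileum.

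In liver 80 members were listed, 49 of the large and 31 of the small subunit. In ileum there were 76 (45 and 31), in duodenum 65 (36 and 29) and in jejunum 37 (19 and 18). A set of 33 members was in all 4 tables, 33 were in 3, 11 in 2 and 5 in 1. Every listed member had the lower mean in Khk KO, in all 4 organs. Of all listed genes, 46.0% were lower in liver, 48.7% in ileum, 57.9% in duodenum and 46.0% in jejunum. Over all genes the authors tested, whether listed or not, those listed as lower made up 16.1%, 15.1%, 5.39% and 8.33% in that order. In these bulk samples, fewer cells of a type and less RNA per cell cannot be told apart.

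The summed normalised count of the members gives the family's level in each library. In liver the sum was 149607, 146984, 155548 and 166233 in Khk KO replicates 1 to 4, and 202772, 252062, 341188 and 247999.8 in WT replicates 1 to 4. The Khk KO mean was 59.2% of the WT mean. All Khk KO libraries lay below all WT libraries, and WT replicate 3 was the highest. In ileum the sum was 348824, 377454, 373858 and 384098 in Khk KO and 768436, 512060, 475441 and 480128 in WT, with the Khk KO mean at 66.4% of WT. In duodenum it was 310444, 342024, 341462 and 331521 against 601123, 384918, 403268 and 371558 (75.3%), and in jejunum 174924, 150491, 152714 and 131992 against 236034, 192246, 202450 and 185374 (74.8%). The genotypes did not overlap in any organ. WT replicate 1 was the highest library in each gut segment, and in duodenum and ileum it stood well above the other 3. No test is given for these sums, because the listed members had been chosen by their difference.

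**Figure D1:**
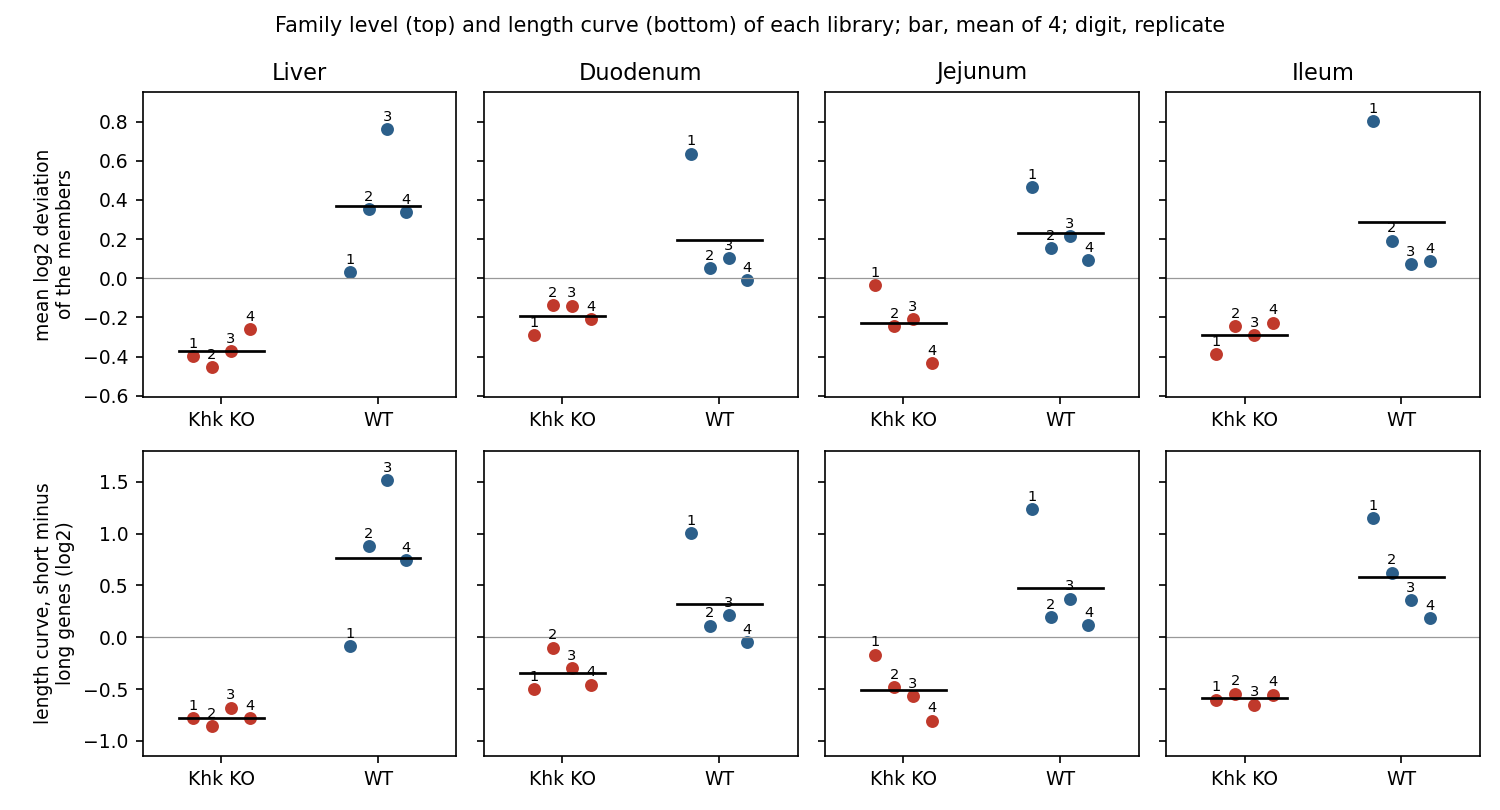
Family level in each library, as the mean over the listed members of the deviation of log2 normalised count from the member's mean over the organ's 8 libraries (top), and a lowess curve, on gene length, of the deviations of listed genes with a mean normalised count of at least 10, read at the 10th minus the 90th percentile of length (log2, bottom), for Khk KO and WT replicates 1 to 4 of each organ, with bars at the means. In the top panels all Khk KO libraries lie below all WT libraries of the organ, and the highest library is WT replicate 3 in liver (0.76) and WT replicate 1 in duodenum (0.64), jejunum (0.47) and ileum (0.80).

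The WT libraries were the more variable. In liver the SD over the 4 WT libraries exceeded that over the 4 Khk KO libraries for 78 of 80 members, with a median SD of 21.6% of the mean in WT against 7.49% in Khk KO. The count was 60 of 65 in duodenum (22.5% against 5.74%), 25 of 37 in jejunum (13.7% against 12.5%) and 76 of 76 in ileum (26.2% against 6.41%). The same library led for most members. WT replicate 3 held the highest WT value for 71 of 80 members in liver, and WT replicate 1 for 59 of 65 in duodenum, 27 of 37 in jejunum and 74 of 76 in ileum.

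In liver the members were lower in Khk KO by a median log2 fold change of -0.75 by edgeR, with quartiles of -0.90 and -0.60. On the authors' normalised counts the median member was at 58.4% of its WT level. The median over all genes fitted in liver was 0.33. By edgeR's quasi-likelihood test with Benjamini-Hochberg adjustment, 71 of the 80 listed members fell. The genes called lower were 21.4% of the listed genes and 7.49% of all genes the authors tested in liver. Here and below, edgeR shares of all genes divide its calls by the authors' number of genes. Unlisted genes could not be fitted by edgeR and enter these shares as not called. The authors' deposited table called 75 lower (11.4% of all genes, 32.6% of the listed). For 74 of the 80, all 4 Khk KO libraries lay below all 4 WT libraries, against 30.7% of all listed genes. The median was -0.73 for the large subunit, with 42 of 49 called, and -0.81 for the small subunit, with 29 of 31 called, and the difference between the subunits was not tested. The count of calls depended on single libraries, since it was 0 without Khk KO replicate 1, Khk KO replicate 2 or WT replicate 4, 6 without Khk KO replicate 4, 35 without Khk KO replicate 3 and 36 without WT replicate 2. The median stayed between -0.92 and -0.62 across these fits.

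The largest fall in liver among members whose mean normalised count was 50 or more was that of Rps27. Its normalised count was 881, 803, 745 and 1204 in Khk KO and 1669, 1936, 3183 and 1700 in WT. The groups did not overlap, the log2 fold change was -1.19 ± 0.23 (SE, n = 4 per group), and the edgeR adjusted p was 0.0183. Rps3, a small-subunit protein at the entry of the message channel, had 2968, 2794, 3228 and 3243 against 3925, 6487, 11457 and 6195. Its groups did not overlap either, although WT replicate 1 lay close to the Khk KO libraries and WT replicate 3 well above all others (-1.16 ± 0.25, adjusted p 0.0208). Rpl36 of the large subunit (-1.13 ± 0.20), the coding copy Rpl9-ps6 (-1.12 ± 0.21) and Rpl41, the shortest of the ribosomal proteins (-1.12 ± 0.34), came next. For Rpl41 the lowest WT library, with 1749, lay below 3 of the 4 Khk KO libraries, whose highest value was 2262. Rpl27-ps3, with 5.82 ± 1.73 normalised counts in Khk KO and 15.5 ± 5.1 in WT (SD, n = 4), is too low in count to rank here.

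The stalk recruits elongation factors to the large subunit. Its base, Rplp0, had 5465, 5680, 6564 and 6315 normalised counts in Khk KO liver and 8439, 10822, 15122 and 9658 in WT liver (log2 fold change -0.84 ± 0.16, edgeR adjusted p 0.0183). Rplp1 fell by 0.57 and Rplp2 by 0.83 on the log2 scale, with adjusted p of 0.0228 and 0.0177, and none of the 3 stalk genes overlapped between genotypes. Rpl5 and Rpl11, which join the smallest ribosomal RNA and can bind Mdm2, fell by 0.57 and 0.71. Rps6, the substrate of the S6 kinases, fell by 0.51 (adjusted p 0.0199). Per length, Rplp1 was the most abundant member in WT liver, at 925 ± 128 FPKM (SD, n = 4), ahead of Rpl36 at 696 ± 230 and Rplp0 at 572 ± 158.

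The smallest differences in liver were those of Rpl4, Rpl22, Rpl7, Rps4x and Rps12-ps3. Rpl4, which lines the exit tunnel, had 6358, 6572, 6690 and 6611 normalised counts in Khk KO and 7924, 7543, 7837 and 7138 in WT. Its groups did not overlap and its WT libraries lay close together, but the log2 fold change of -0.19 ± 0.10 did not pass the edgeR test (adjusted p 0.24). Rpl22, an RNA-binding protein of the large subunit, had -0.24 ± 0.11 (adjusted p 0.184), and Rpl7 -0.31 ± 0.10 (adjusted p 0.067). Rps4x, encoded on the X chromosome, fell by 0.39 (adjusted p 0.0408). Rps12-ps3 had -0.39 ± 0.19 with overlapping groups, and every 50-base stretch of its transcript occurs in other genes' transcripts. Of the paralogs, the p53-responsive Rps27l fell by 0.61 (adjusted p 0.0268) and Rpl7l1 by 0.53 (0.0421), while Rpl22l1, at -0.55, had an adjusted p of 0.0899. Rps19bp1, an activator of the deacetylase Sirt1 and no ribosomal protein, had -0.58 (adjusted p 0.0511).

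**Figure D2:**
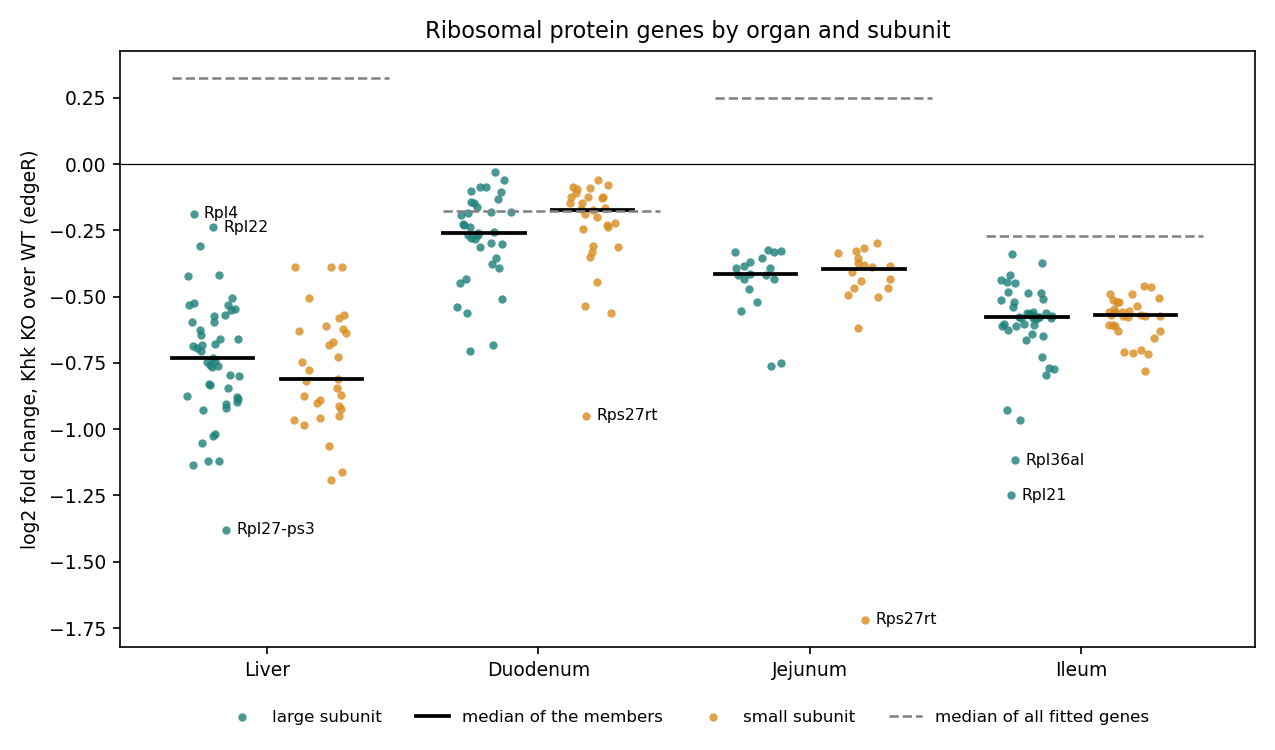
Change from WT to Khk KO (vertical axis, log2 fold change by edgeR) of every listed member, by organ and by large or small subunit, with solid lines at the members' medians, dashed lines at the medians of all fitted genes and names beside members at least 0.5 from the organ's family median. The family medians were -0.75 in liver, -0.57 in ileum, -0.23 in duodenum and -0.41 in jejunum, and the subunit medians run from -0.81 (small subunit, liver) to -0.17 (small subunit, duodenum).

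In ileum 64 of the 76 listed members fell by edgeR, against 6.36% of all genes the authors tested and 19.6% of the listed genes. The deposited table called 66 (6.86% of all genes, 21.2% of the listed), and 70 did not overlap between genotypes (29.9% of all listed genes). The median log2 fold change by edgeR was -0.57, and the median of all fitted genes was -0.27. On the authors' normalised counts the median member was at 66.4% of its WT level. The large subunit had a median of -0.58 with 39 of 45 called and the small subunit -0.57 with 25 of 31 called. The quartiles of -0.63 and -0.52 lay closer together than in liver. The number called was 10 without Khk KO replicate 1, 23 without Khk KO replicate 2, 32 without Khk KO replicate 3, 34 without Khk KO replicate 4 and 33 without WT replicate 2. It was 71 without WT replicate 1, although that library held the highest value for nearly every member.

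Rpl21 of the large subunit fell most in ileum. Its normalised count was 1106, 1155, 1483 and 1128 in Khk KO and 5243, 2404, 1684 and 2504 in WT, a log2 fold change of -1.25 ± 0.26 (edgeR adjusted p 0.0146). WT replicate 1 was far above the rest and WT replicate 3 lay near the highest Khk KO library, without overlap. Rpl41 (-0.96 ± 0.27), Rpl30 (-0.93 ± 0.24) and Rps14 (-0.78 ± 0.19), the last a protein of the small-subunit platform, were also among the larger falls. At the other end, Rpl3, which lies near the peptidyl transferase centre, fell by 0.34 (adjusted p 0.0453). Its 8781 to 9468 normalised counts in Khk KO stood against 11305 to 12062 in WT, and WT replicate 1 was not the highest of them. Rpl4 fell by 0.37, Rpl6 by 0.42 and Rpl5 by 0.44, while Rpl23, at -0.45 ± 0.15, had an adjusted p of 0.0663.

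Rplp0 in ileum had 16870, 17001, 18970 and 18158 normalised counts in Khk KO and 37328, 23140, 23249 and 23674 in WT (-0.58 ± 0.14, edgeR adjusted p 0.0256). The other stalk genes had changes of like size, -0.58 for Rplp1 and -0.63 for Rplp2, but with adjusted p of 0.0706 and 0.0702. In both, WT replicate 1 exceeded the other WT libraries by far. Rpl11 fell by 0.56 and Rps6 by 0.46. Per length Rplp1 again led in WT, at 1300 ± 489 FPKM, before Rplp0 at 772 ± 183 and Rps3a1, a small-subunit protein, at 629 ± 151. Rpl36al, a copy of Rpl36a, had a mean of 23.2 ± 11.1 normalised counts in WT and 10.8 ± 2.18 in Khk KO, with overlapping groups.

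In duodenum no listed member passed the edgeR test, where 0.0064% of all genes and 0.0638% of the listed genes were called lower, and no member was called by DESeq2 (0.319% of the listed genes called lower). An unadjusted edgeR p under 0.05 was reached by 13 of 65, and by 12.1% of the listed genes on the lower side, although listing itself required such a p in the authors' test. The deposited table called 2, Rps27rt and Rpl17 (0.0961% of all genes, 0.957% of the listed). All 4 Khk KO libraries lay below all 4 WT libraries for 57 of the 65 listed members, against 26.0% of all listed genes. The median log2 fold change was -0.23, against -0.18 for all fitted genes. The TMM scaling of edgeR moved all genes in duodenum upwards by 0.15 relative to the authors' size factors, on which the members' median was -0.39. The large subunit had a median of -0.26 and the small subunit -0.17.

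WT replicate 1 stood well above the other libraries for some duodenal members. Rpl41 had 8139, 8946, 8530 and 8788 normalised counts in Khk KO and 32010, 10256, 12129 and 10620 in WT (-0.70 ± 0.28, edgeR adjusted p 1), so that 1 library was well over the other 3. Rpl38, known for its part in the translation of Hox messages, had -0.56 ± 0.26, and Rps14 -0.56 ± 0.26, with the same library highest in both. The smallest values were those of Rpl15 (-0.03), Rpl6 (-0.06), Rps7 (-0.06), Rps26 (-0.08) and Rps6 (-0.09), each with an SE of 0.08 or 0.09. For Rps6 the normalised count was 7437 to 8153 in Khk KO and 8429 to 10799 in WT. Rplp0 had -0.14 ± 0.08, Rplp1 -0.43 ± 0.18 and Rplp2 -0.54 ± 0.26. Per length Rplp1 (1668 ± 700 FPKM), Rps15 of the small subunit (802 ± 466) and Rpl41 (677 ± 439) led in WT, and their SDs carry the high library.

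In jejunum no listed member passed the edgeR test (0.0101% of all genes and 0.0414% of the listed genes called lower), and DESeq2 called 5 of 37 (2.57% of the listed genes). An unadjusted edgeR p under 0.05 was reached by 34, and by 37.2% of the listed genes on the lower side, and here too listing required such a p. The deposited table called 2, again Rps27rt and Rpl17 (0.223% of all genes, 0.912% of the listed). Groups did not overlap for 26 of 37 (23.0% of all listed genes). The median log2 fold change was -0.41, with -0.41 for the large and -0.40 for the small subunit, against 0.25 for all fitted genes. Rplp0 had 16163, 13900, 13898 and 12183 normalised counts in Khk KO and 17977, 19166, 18908 and 17543 in WT, without overlap (-0.39 ± 0.13, adjusted p 0.237). Unlike in the other gut segments, WT replicate 1 was not the highest library for this gene.

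The 34 jejunal members outside Rps27rt, Rpl17 and Rpl21 lay in a narrow band. Rps14 (-0.62 ± 0.15) and Rpl37a (-0.55 ± 0.23) were at its lower edge, and Rpl14 (-0.33 ± 0.13) and Rps6 (-0.33 ± 0.12) toward its upper edge. Rplp2 had -0.42 ± 0.19, and the paralog Rps27l -0.47 ± 0.12. Per length Rplp0 was the highest member in WT, at 654 ± 24.4 FPKM, and Rps3a1 followed at 603 ± 92.6.

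**Figure D3:**
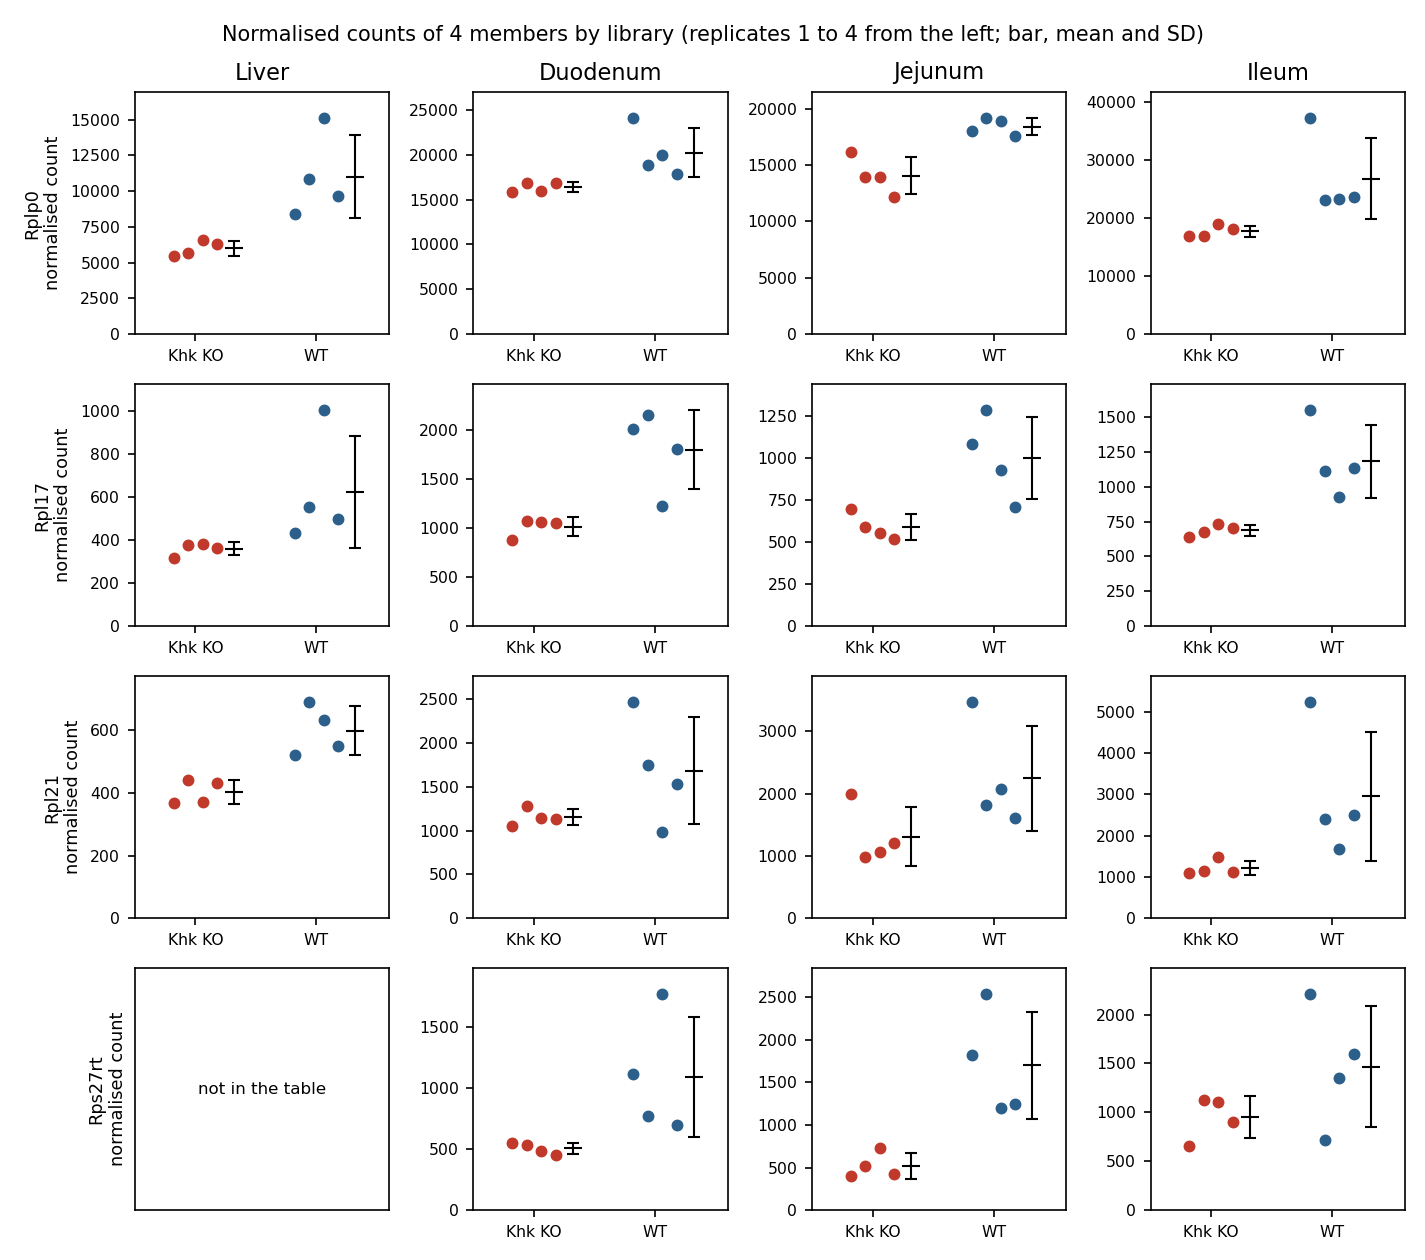
Normalised counts (vertical axis, linear, from 0 in each panel) of Rplp0, Rpl17, Rpl21 and Rps27rt in each Khk KO and WT library of the organs that list them, with the mean and SD of 4 libraries beside each group. Khk KO points lie below WT points for Rplp0 and Rpl17 in all 4 organs, whereas Rpl21 overlaps in duodenum and jejunum and Rps27rt overlaps in ileum.

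Rps27rt stood farthest from its family. In jejunum its normalised count was 398, 518, 727 and 424 in Khk KO and 1828, 2539, 1194 and 1250 in WT. The groups were widely separated, with WT replicate 2 rather than WT replicate 1 highest. The log2 fold change of -1.72 ± 0.28 lay 1.31 below the family median. The edgeR adjusted p was 0.237, and the adjusted p in the authors' deposited table was 1.48e-06. In duodenum it had 554, 534, 485 and 454 against 1122, 772, 1775 and 696 (-0.95 ± 0.27, 0.72 below the family median, edgeR adjusted p 0.958, deposited adjusted p 0.0223). WT replicate 3 was the highest there and WT replicate 4 came near the Khk KO libraries. In ileum it had 661, 1123, 1110 and 906 against 2210, 719, 1346 and 1594, with overlap, and -0.61 ± 0.27 (adjusted p 0.159) was close to the family median. It was not listed in liver.

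Measured against the family, with the mean log2 level of the members as the library's yardstick, Rps27rt had -1.26 ± 0.29 in jejunum (edgeR adjusted p 0.0477), -0.71 ± 0.29 in duodenum (adjusted p 0.971) and -0.02 ± 0.25 in ileum. Rps27rt was singled out for its distance from the family in these same values, and the yardstick includes it. These adjusted p are therefore no independent test of that distance. Leaving out each library in turn gave -1.45 to -0.95 in jejunum with adjusted p of 0.0531 to 0.142, so the jejunal call was lost without any 1 of the 8 libraries. In duodenum the range was -0.84 to -0.31, with the smallest value without WT replicate 3. Since Rps27 was listed in neither duodenum nor jejunum, the joint level of the pair was computed for ileum alone. There the sum of Rps27 and Rps27rt was 4074 ± 236 normalised counts in Khk KO and 6691 ± 2785 in WT (SD, n = 4), which is 60.9% of WT. The part of the sum counted as Rps27rt was 16.5% to 28.6% in the Khk KO libraries and 14.2% to 28.0% in the WT libraries, overlapping ranges. Rps27 alone had 3333, 3293, 2765 and 3106 against 8638, 4326, 3835 and 4095 in ileum, and it fell by 0.71 (adjusted p 0.0463). Whether the Rps27rt reads arose from Rps27 was not tested.

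Rpl17, a large-subunit protein of the exit tunnel whose gene lies at chr18:75000477-75003381 on the plus strand, was listed in all 4 organs, did not overlap between genotypes in any of them, and lay within 0.5 of the family median in each. In liver it had 315, 378, 383 and 363 normalised counts in Khk KO and 435, 555, 1005 and 497 in WT, a log2 fold change of -0.76 ± 0.24 (edgeR adjusted p 0.0538). In ileum it had 636, 678, 735 and 701 against 1551, 1116, 929 and 1137, and it fell by 0.77 with the lowest adjusted p of the named members in that organ, 0.00685. The Khk KO libraries lay close together in both organs, and the WT libraries spread more widely.

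In duodenum Rpl17 had 877, 1071, 1068 and 1054 against 2013, 2153, 1232 and 1814 (-0.68 ± 0.17, edgeR adjusted p 0.958, deposited adjusted p 0.00523). In jejunum it had 697, 591, 552 and 520 against 1084, 1287, 928 and 710 (-0.76 ± 0.19, adjusted p 0.237, deposited 0.0441). WT replicate 2 was the highest library in both, and WT replicate 1, which led for most members, came second. Relative to the family the change was 0.01 in liver, -0.19 in ileum, -0.45 in duodenum and -0.31 in jejunum, and none of these passed the edgeR test.

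Rpl21 had changes of -0.55 in liver, -1.25 in ileum, -0.38 in duodenum and -0.75 in jejunum. Relative to the family its ileal change was -0.61 ± 0.19 (edgeR adjusted p 0.0571), between -0.74 and -0.44 with each library left out, and 2 of those 8 fits called it. Rpl21 too was picked for its distance from the family in these values, so these fits are no independent test. In the other organs its change relative to the family was 0.16 (liver), -0.12 (duodenum) and -0.30 (jejunum). Stretches shared with other transcripts made up 26.2% of the Rpl21 main coding transcript, which is annotated at 1856 bases, and were spread over 82 other genes. Among members whose mean normalised count was 50 or more, apart from Rps27rt in duodenum and jejunum and Rpl21 in ileum, only Rpl4 and Rpl22 in liver reached 0.5 from the median, both on the side of the smaller change (0.56 and 0.51 above it). Just inside that distance were Rpl41 and Rpl17 in duodenum (0.48 and 0.46 below) and Rps27 in liver (0.45 below). Within 0.5 lay 77 of 79 members with a mean of at least 50 in liver, 64 of 65 in duodenum, 36 of 37 in jejunum and 74 of 75 in ileum.

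**Figure D4:**
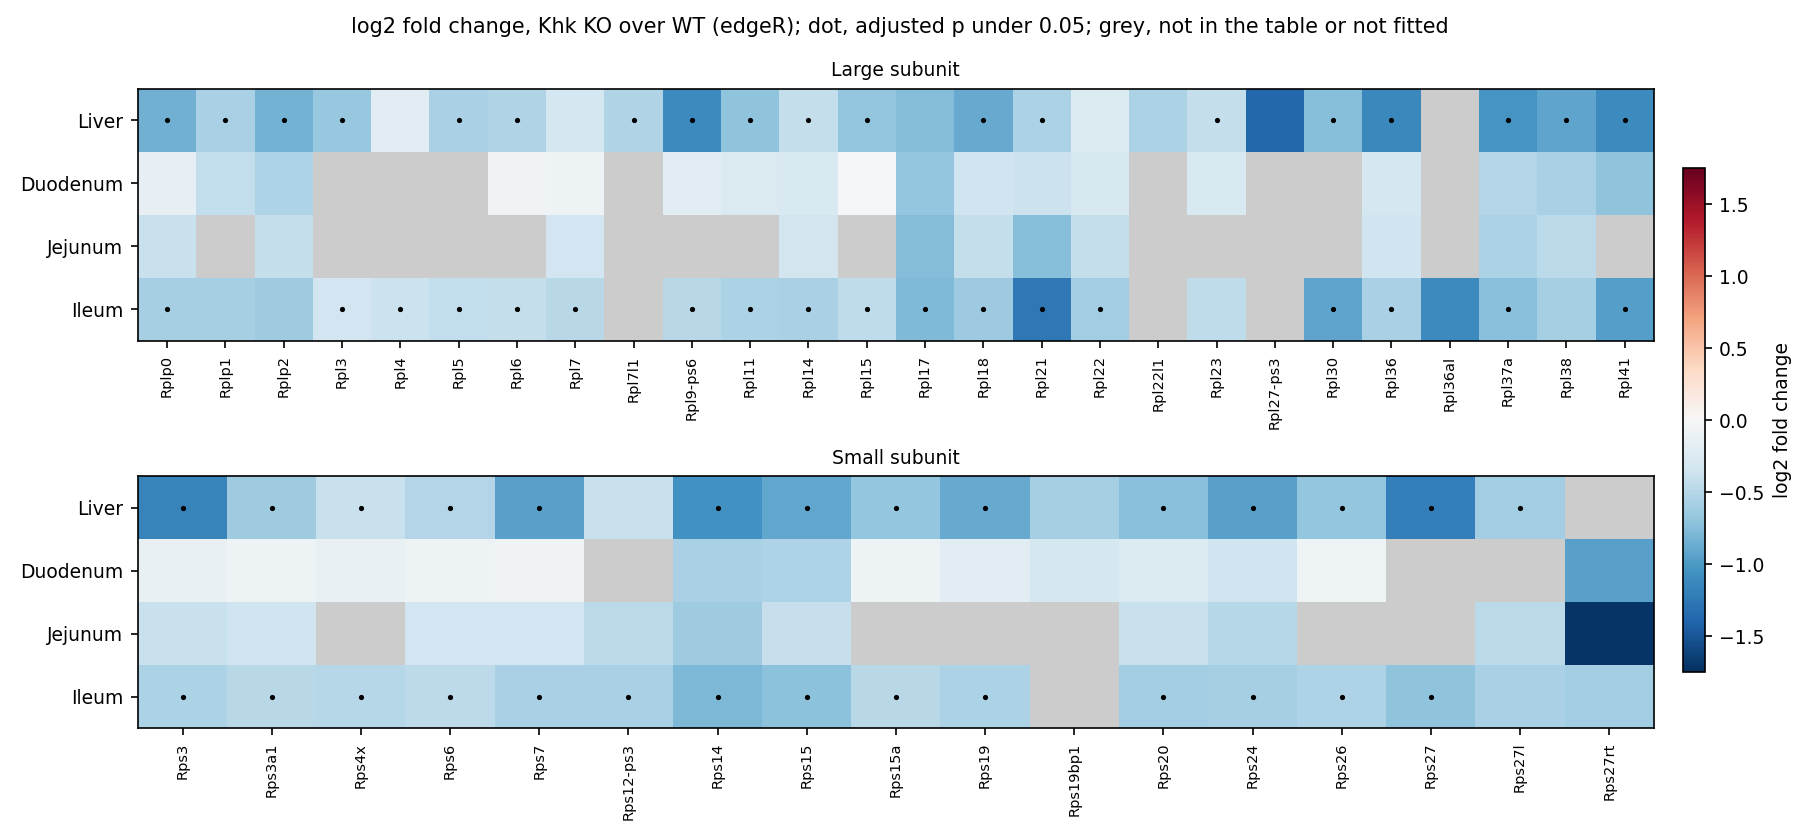
Change from WT to Khk KO (colour, log2 fold change) for 43 of the 82 members (columns, by subunit) in the 4 organs (rows), with a dot for an edgeR adjusted p under 0.05 and grey for a member not in the organ's table or not fitted. Dots mark 33 of the members shown in liver and 32 in ileum and are absent from duodenum and jejunum, where 11 and 21 members are grey.

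Liver and ileum shared most of their calls. A set of 59 members fell in both, which is 83.1% of the 71 called in liver and 92.2% of the 64 called in ileum, as follows when nearly every member is called in each. Across the 74 members listed in both, Pearson's r of the log2 fold changes was 0.21. It was 0.26 between liver and duodenum (64 members), 0.01 between liver and jejunum (36), 0.76 between duodenum and jejunum (34), 0.50 between duodenum and ileum (63) and 0.32 between jejunum and ileum (37). Members are not independent of each other, and the organs may share mice. Differences between organs were not tested, because each table was normalised separately.

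Fold change followed gene length in these tables, and the members are short. Their median length was 1730 bases in liver, 1705 in ileum, 1726 in duodenum and 1586 in jejunum, against 3858, 3810, 2691 and 3272 for all genes listed. Across listed protein-coding genes, Pearson's r of log2 fold change on log2 length was 0.76 in liver (4914 genes), 0.54 in duodenum (1115), 0.68 in jejunum (1694) and 0.74 in ileum (4163). In liver, 377 other protein-coding genes with a median length of 1755 bases had a median log2 fold change of -0.64, and 298 genes of 1274 bases had -0.71, beside -0.75 for the members. In ileum, genes of 1741 bases had -0.53 beside -0.57, for duodenum the genes of 1755 bases had -0.33 beside -0.23, and in jejunum genes of 1748 bases had -0.53 beside -0.41. These other genes were set apart by the name rule alone, so genes of the mitochondrial ribosome and of translation were not removed from them. Their medians were farther from 0 than the members' in duodenum and jejunum, and nearer to 0 in liver and ileum. Within the family the relation was weaker, with r of 0.14 (79 members), 0.43 (65), 0.32 (37) and 0.09 (75) in the order liver, duodenum, jejunum and ileum.

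**Figure D5:**
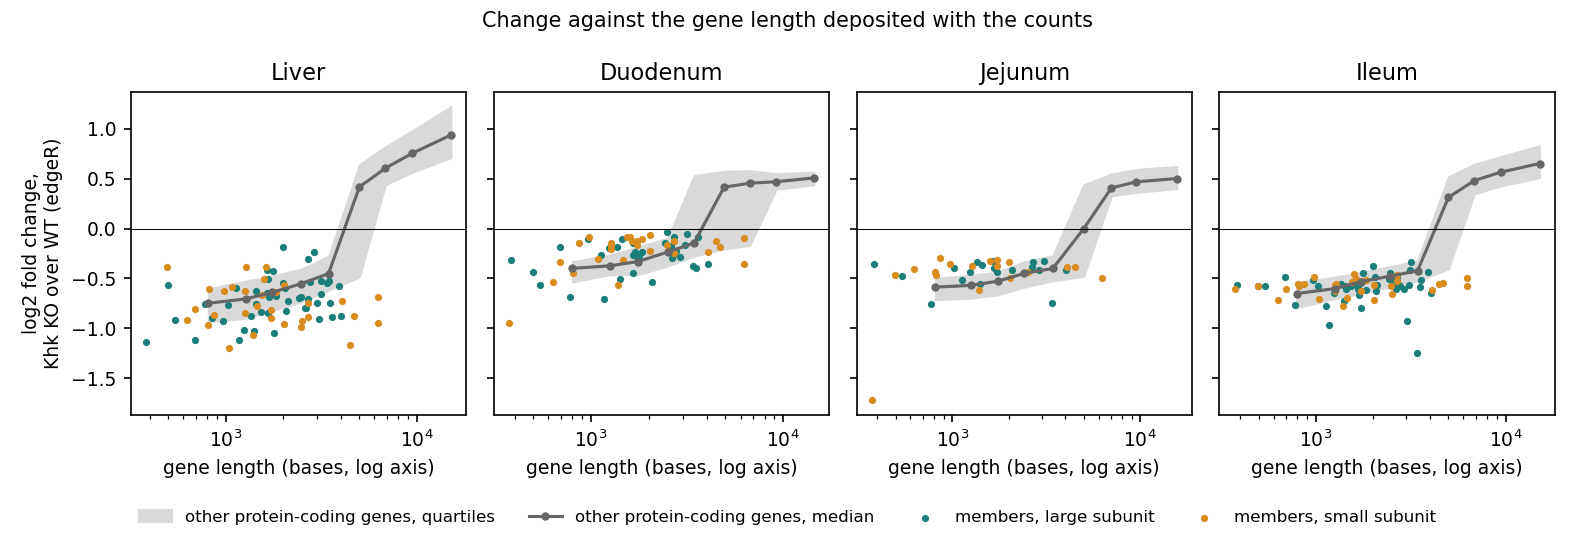
Change from WT to Khk KO (vertical axis, log2 fold change) against gene length in bases (horizontal axis, log scale) for the members (points) and for the other listed protein-coding genes in bins of length (median with quartiles), by organ. Most members lie near the medians of other listed genes of their length and those of 4000 bases or more lie below them, and since only genes with p under 0.05 are listed, the bin medians step from below 0 to above 0 between bins of about 3430 and 7027 bases.

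The length gradient also differed between libraries as the family did. Measured as the level of genes at the 10th percentile of length minus that at the 90th (log2, relative to the organ's mean), it was -0.86 to -0.68 in Khk KO and -0.08 to 1.51 in WT liver, -0.50 to -0.10 and -0.05 to 1.00 in duodenum, -0.80 to -0.17 and 0.12 to 1.24 in jejunum, and -0.65 to -0.54 and 0.18 to 1.15 in ileum. The library with the highest family level had the steepest positive gradient in each organ, WT replicate 3 in liver and WT replicate 1 in the gut segments. The gradient rests on listed genes alone, which were selected for a difference between the genotypes and include the members. Its separation of the genotypes and its match to the family level are therefore partly built in, and neither was tested. Since the gradient separates the genotypes, a fall of the members and a fall of short genes in general cannot be told apart by these libraries.

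With the trend of each library on gene length taken out, the members' median was -0.19 in liver, -0.09 in ileum, -0.05 in duodenum and -0.0052 in jejunum, and 61 of 80, 59 of 76, 41 of 65 and 19 of 37 were below 0. The calls fell to 6 of 80 in liver, where 6.12% of the listed genes were called lower (2.14% of all genes), and to 3 of 76 in ileum, where 4.7% were (1.52%). None was called in duodenum (0.0638% of the listed, 0.0064% of all) or jejunum (0.0414%, 0.0101%). These counts are near the shares over all listed genes, so they set nothing apart about the members. The 6 in liver were Rps24 (-1.46 ± 0.27), Rps3 (-1.21 ± 0.26), Rps15a (-1.17 ± 0.19), Rps19 (-0.98 ± 0.17), Rpl18 (-0.78 ± 0.12) and Rps20 (-0.64 ± 0.14), with edgeR adjusted p of 0.0116 to 0.0236. Rps19 and Rps24 are genes of Diamond-Blackfan anaemia in humans. The 3 in ileum were Rps24 (-0.90), Rps15a (-0.81) and Rps3 (-0.55). The 6 liver genes are the 6 members of 4000 bases or more in that table, for instance Rps24 with 6256 bases, whose main coding transcript has 1613, and Rps19 with 4685 and 774.

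The deposited length equals the union of annotated exons for 95.1% of the liver genes, so it can exceed the message length for these genes. On the length of the main coding transcript instead, the medians were -0.09 in liver, 0.0027 in ileum, 0.06 in duodenum and 0.04 in jejunum. Those below 0 were then 50 of 80, 38 of 76, 24 of 65 and 15 of 37, and the calls 3 of 80 in liver (Rpl18, Rps15a and Rps20) and 2 of 76 in ileum (Rps15a and Rps20). The main coding transcripts of these 3 genes are the longest among the members, at 5179 bases for Rps15a, 3706 for Rps20 and 2989 for Rpl18. The remaining calls thus still go with a long annotated length. Of the listed genes 4.8% were called lower in liver and 3.34% in ileum on this length, so these counts lie under the background. A curve of this kind also takes out any effect of genotype that follows length.

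The other genes of the ribosome and of translation were read from lists, to be set against the 21.4% of listed genes called lower and 20.5% called higher in liver, and 19.6% and 23.2% in ileum. Of the 4 cytosolic ribosome genes outside the name rule, all 4 fell in liver, with Rack1, the scaffold on the small subunit, at -1.13 ± 0.24 and Fau, whose product is cut to a ribosomal protein, at -0.83 ± 0.16. In ileum 3 of 4 were listed and fell (Rpsa -0.78, Fau -0.82, Rack1 -0.50), and in duodenum 2 and in jejunum 3 were listed, lower, with none called. Of 78 mitochondrial ribosomal protein genes, 65 were listed in liver, 52 in ileum, 29 in duodenum and 21 in jejunum, every one lower. By edgeR 43 of them fell in liver, 21 in ileum and none in duodenum or jejunum. Their medians were -0.68, -0.52, -0.29 and -0.50, taken as liver, ileum, duodenum and jejunum. With the length trend taken out these medians were -0.22, -0.04, -0.17 and -0.07. The calls were then 16 in liver and 7 in ileum, where 6.12% and 4.7% of the listed genes were called lower. For the 4 other cytosolic ribosome genes the median without the length trend was -0.40 in liver and -0.47 in ileum, with 1 called in each.

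A list of 8 genes held elongation factors together with Tpt1, a TOP message. Of these, 7 were listed in liver, where 6 fell and 1 rose. Among those that fell were Eef1a1, the carrier of aminoacyl-tRNA, at -0.50, Eef1b2, its exchange factor, at -0.84 and Tpt1 at -0.60. In ileum 4 of 5 listed fell, with Eef1b2 at -0.53 and Tpt1 at -0.60. Without the length trend the median of this list was -0.09 in liver and -0.11 in ileum, with 1 called in each. Of 30 initiation factor genes, 4 fell and 1 rose of 19 listed in liver, and 5 fell and 2 rose of 13 in ileum. Of 15 genes of RNA polymerase I and ribosomal RNA transcription, 2 fell and 1 rose of 4 listed in liver, and neither of 2 passed in ileum. Of 70 genes of ribosome assembly, 6 fell and 4 rose of 22 listed in liver, and 2 fell and 3 rose of 16 in ileum. Most of these counts rest on few listed genes, and those of ribosome assembly lie near the shares of all listed genes. None of these lists had a member called in duodenum or jejunum.

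Of 23 genes that control growth and these messages, 14 were listed in liver, of which 5 rose and 2 fell. Rictor, a subunit of mTORC2, rose by 1.69 ± 0.25 (edgeR adjusted p 0.0147), and Rps6kb1, the kinase of Rps6, by 0.67 ± 0.14 (adjusted p 0.0206). Eif4ebp1, a repressor of cap-dependent translation, fell by 0.72, and Akt1s1, an inhibitor in mTORC1, by 0.53. In ileum 4 rose and 1 fell of 7 listed, with Rictor at 0.97 ± 0.13. The length order is the same here: Rictor has 16930 bases and Rps6kb1 8658, Eif4ebp1 2196 and Akt1s1 3072, and without the length trend the liver change was -0.06 for Rps6kb1 and 0.68 for Rictor. Of 22 chaperone and quality-control genes, 1 fell and 2 rose of 5 listed in liver and 1 rose of 6 in ileum.

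Markers of other cells differed between the genotypes in both directions. The listed erythroid genes (5 of 5 in liver, all haemoglobin genes or Alas2) summed to 2967 to 3515 normalised counts in Khk KO and 4584 to 10959 in WT liver. In ileum 3 of 5 were listed, with 177 to 363 against 376 to 737, and in duodenum and jejunum 4 of 5, with 315 to 985 against 821 to 1780 and 389 to 719 against 532 to 1543. These genes are short too. Their median log2 fold change was -1.34 (liver), -1.08 (ileum), -1.03 (duodenum) and -1.16 (jejunum). With the length trend taken out it stayed below 0, at -0.57 (liver, 1 called), -0.48 (ileum), -0.74 (duodenum) and -0.74 (jejunum). The listed adipocyte genes were 56.2 to 182 against 102 to 1030 in liver (3 of 5), 291 to 559 against 311 to 2852 in jejunum (4 of 5) and 282 to 675 against 323 to 2051 in ileum (2 of 5). The listed hepatocyte genes (5 of 7) summed to 333256 to 353755 against 389903 to 542278 in liver, where Apoa1, Apoa2, Serpina1a and Ttr fell by edgeR, while the longer Cps1 was higher at 0.36 (adjusted p 0.0823). In ileum 4 of 9 epithelial genes had 44874 to 57158 against 61855 to 104450, and 2 of 5 Paneth cell genes 88402 to 116321 against 127307 to 153561.

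Some other markers were higher in Khk KO, and further genes of the same lists were lower. Lgr5, a receptor known from stem cells of the crypt, rose in liver by 1.13 (edgeR adjusted p 0.0175), with 150 to 220 normalised counts against 71.1 to 104. The cell division genes Mki67 and Top2a summed to 5784 to 6610 against 3059 to 5239 in ileum, without overlap, at log2 fold changes of 0.54 and 0.44 (adjusted p 0.0913 and 0.101). Gzmb, a cytotoxic granule protease, had 0.55 in duodenum and 0.44 in jejunum, and the enterocyte gene Sis 0.42 and 0.39. Of the 4 epithelial genes listed in jejunum (Alpi, Apoa4, Epcam and Sis), 2 were higher and 2 lower. Their sums overlapped, at 194754 to 230355 in Khk KO against 181724 to 291751 in WT. Mzb1, a gene of plasma cells, had 0.61 in duodenum and -0.70 in ileum. Apart from Lgr5, none of these genes passed the edgeR test, and without the length trend Lgr5 had 0.24 and was not called. Among the lower genes, Ccnb1, Pcna and Top2a summed to 342 to 413 against 496 to 623 in liver, with 1 called by edgeR. Also in liver, Cd79a and Cd79b had 22.6 to 54.5 against 47.1 to 101. Ascl2 had 23.5 to 73.9 against 81.1 to 135 in duodenum, and Cd3e and Cd3g 108 to 400 against 272 to 569 in ileum. The part of any of these cells in the family's values was not tested. Pseudogenes with ribosomal protein names were listed as lower in 25 of 26 cases in liver, 13 of 13 in duodenum, 10 of 12 in jejunum and 25 of 29 in ileum, and of the 82 members 29 host snoRNA genes, 55 in all, inside their bounds.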

How the data were processed

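Per the labels' protocols, polyadenylated RNA was selected with poly-T beads and copied from random primers, by a chemistry that may or may not keep strand. HISAT2 2.0.5 and GRCm38/mm10 appear in the submitters' processing notes, while the counting tool and the test are not given in the sources used here. Per the file headers, the authors deposited raw read counts, a normalised signal (the count divided by 1 size factor per library), FPKM values, the log2 fold change from WT to Khk KO, and a p-value with its adjusted value. Genes with an unadjusted p-value of 0.05 or more are not listed, so depth is known only for the listed genes.

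Counts of each organ were fitted alone with edgeR 4.0.16 in R 4.3.3 (TMM, filterByExpr, quasi-likelihood F test, Khk KO against WT, 4 libraries each), with the library totals that the deposited FPKM values imply. The TMM factors and the estimates of spread rest on listed genes alone, which had been selected for a difference between the genotypes. How far this selection moved the fold changes, SEs and adjusted p was not tested. Adjustment by Benjamini and Hochberg used the authors' number of genes, 18225 in liver, 16034 in ileum, 15615 in duodenum and 9881 in jejunum, at a threshold of 0.05. The SE is the size of the log2 fold change over the square root of F. Normalised counts with mean ± SD are the authors' values. DESeq2 1.42.0, other scalings, no filter, a replicate block, each library left out and a lowess trend on length (span 0.5, genes with a mean of at least 10) were alternatives. The transcript length trend (GENCODE M21) and the family yardstick were added after seeing the data. On simulated data the edgeR step recovered 78.3% of changes of 1 on the log2 scale in liver (5757 genes), 63.2% in duodenum (1415), 71.6% in jejunum (2060) and 89.2% in ileum (4813). Tables and plots used Python 3.11.15 with pandas 2.3.3 and matplotlib 3.10.9.

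Members and gene lists were chosen with earlier results of these data known. Named members are the 5 largest and 5 smallest changes per organ among those with a mean of at least 50, those 0.5 or more from the family median, the 3 highest in FPKM, the stalk genes, Rpl5, Rpl11, Rps6, Rps27rt, Rpl17, paralogs and, after their values were seen, members called without the length trend. Not every member the rule selects is reported.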

Additional observations from a re-analysis of the deposited data

Results flagged for a closer look

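Of 174 groups of 4 libraries examined, 25 held 1 library set apart from the other 3 by a gap above Dixon's critical value, where chance gives about 1 in 20 groups, and in 21 of the 25 that library was WT replicate 1. In duodenum, WT replicate 1 stood apart with a family sum of 601123 normalised counts, and with 32010 for Rpl41, 4528 for Rpl38, 29866 for Rps14, 8039 for Rpl6, 27767 for Rplp1, 16542 for Rplp2, 19419 for Rps15 and 8734 for Rpl11. In ileum it stood apart with a family sum of 768436, and with 26389 for Rpl41, 5538 for Rpl30, 19516 for Rps14, 11353 for Rpl6, 37328 for Rplp0, 10688 for Rplp2, 17959 for Rps3a1, 8638 for Rps27 and 11365 for Rps20. In jejunum WT replicate 1 stood apart with 7422 for Rpl37a and with 13852 for Khk.

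Among the Khk KO libraries, the value set apart was the highest for replicate 4 of liver, with 4365 normalised counts of Rpl7, and for replicate 3 of ileum, with 1483 of Rpl21. It was the lowest for replicate 1 of duodenum with 877 of Rpl17 and replicate 1 of jejunum with 541 of Khk. The members of a library share that library, so these values are not independent of each other.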

How the results depend on the processing

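The number of members called lower by edgeR depended on the processing. In liver the 71 calls became 6 with the length trend taken out, 3 with the transcript length trend, and 0 to 77 with each library left out. In ileum the 64 became 32 with the authors' size factors, 3 with the length trend, 2 with the transcript length trend, 27 with the replicate number as a block, and 10 to 71 with each library left out. In duodenum the 0 became 2 in the authors' deposited table, and in jejunum 2 in the deposited table, 5 with DESeq2 and 25 when adjusted over the listed genes alone, all of which had a p under 0.05. Without a low-count filter the counts were 73 in liver and 68 in ileum. The replicate block left 61 calls in liver and brought the Khk change in jejunum to -3.34 with an adjusted p of 0.128. The labels do not say whether equal numbers pair the libraries. The correlation of deviations within a number ran from -0.27 to 0.31, without a reference range to judge it by. Libraries of the same number matched each other best only for replicate 3 of liver (0.065) and replicates 1 and 4 of jejunum (0.31 and 0.26). Pairing was thus left undecided.

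The family median moved to -0.19 in liver, -0.0052 in jejunum and -0.094 in ileum with the length trend taken out, and under the transcript length trend to -0.094 (liver), 0.058 (duodenum), 0.037 (jejunum) and 0.0027 (ileum). Of 79 values of named members, 38 of them called, no direction turned under any other setting, but 28 turned under the length trend and 34 under the transcript length trend. Under the length trend and then the transcript length trend, the log2 fold change in liver was 0.35 and 0.33 for Rpl4, 0.15 and 0.13 for Rpl22, 0.13 and 0.30 for Rpl7, 0.21 and 0.26 for Rps4x, 0.39 and 0.40 for Rps12-ps3, 0.19 and 0.20 for Rplp1, 0.10 and 0.16 for Rps6, 0.12 and 0.18 for Rps27l, 0.018 and 0.21 for Rpl22l1, and 0.085 and 0.091 for Rps19bp1. It was 0.0024 for Rpl17 under the former alone and 0.0055 for Rpl11 under the latter alone. In duodenum it was 0.082 and 0.034 for Rpl15, 0.13 and 0.21 for Rps7, 0.17 and 0.21 for Rps26, 0.17 and 0.21 for Rps6, and 0.10 and 0.079 for Rplp0, and under the latter alone 0.18 for Rpl6 and 0.058 for Rpl11. In jejunum it was 0.13 and 0.14 for Rpl14, 0.13 and 0.14 for Rps6, 0.053 and 0.035 for Rplp0, 0.031 and 0.080 for Rplp2, and 0.13 and 0.12 for Rps3a1. In ileum it was 0.089 and 0.066 for Rpl4, 0.062 and 0.092 for Rpl23, 0.055 and 0.096 for Rps6, 0.099 and 0.092 for Rplp1, 0.093 and 0.059 for Rps3a1, 0.063 and 0.060 for Rps27rt, and 0.047 and 0.087 for Rps27l, and under the latter alone 0.12 for Rpl3, 0.072 for Rpl6, 0.026 for Rpl11 and 0.016 for Rps27. Relative to the family, with each library left out, Rpl17 in liver ran from -0.058 to 0.16 and Rps27rt in ileum from -0.23 to 0.12. The cause of these shifts was not tested, beyond the length terms that define them.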
